A study of Bos taurus with 35 samples.

Results

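FASN (ENSBTAG00000015980) and DGAT2 (ENSBTAG00000001154) are 2 of the 24596 genes counted in 34 RNA-seq libraries of Hanwoo, the native cattle of Korea. They were chosen by their Ensembl identifiers, as genes of the synthesis of fatty acids and of triglycerides, and both had counts in each of the 34 libraries. The libraries came from omental (O), subcutaneous (S) and intramuscular (I) fat and from muscle of 9 animals, and the study asked how gene expression differs between these fat depots.

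FASN encodes fatty acid synthase, the enzyme that builds palmitate from acetyl-CoA and malonyl-CoA in the cytosol. DGAT2 encodes diacylglycerol O-acyltransferase 2, an enzyme that joins an activated fatty acid to diacylglycerol and so makes the triglyceride of the lipid droplet. In cattle, adipose tissue is the main site of fatty acid synthesis, and fat stored between muscle fibres is seen as marbling of beef.

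There were 9 O, 9 S and 8 I libraries and 8 muscle libraries. Each animal was 30 months old and is numbered here as a replicate from 1 to 9. By the labels, replicates 1, 4 and 7 were female, replicates 2, 5 and 8 castrated males and replicates 3, 6 and 9 males. All groups shared the breed, the age and the feeding station, and no group was treated. For replicate 9, I fat was not analysed here, and the 8 muscle libraries came from the animals other than replicate 7. According to the study's methods, S and I fat were dissected from a rib section and O fat from beside the abomasum. The methods call the animals steers, whereas the labels name 3 sexes.

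The study measured both genes by qRT-PCR as well, and its primers are the only sequences of the genes at hand. Its primer list names DGAT2 with the identifier used here. Its qRT-PCR values are headed DGAT, however, and its text names DGAT1. They are shown to define which transcripts carry these names, 5′ to 3′ in lower case.
FASN forward primer: gtgcgtcctggtgtctaacctc
FASN reverse primer: ctcctcgggcttgtcttgttc
DGAT2 forward primer: gccaaggaaagacacagaggaaa
DGAT2 reverse primer: agcacaggaacactgccacc
The study picked both genes for that measurement from its comparisons of I with the other depots on these same libraries, and FASN also from its S comparisons. The values of these contrasts are therefore given below as a description, without a p-value. DGAT2 between O and S, all contrasts with muscle and all contrasts of labelled sex played no part in the choice and carry a test. The contrasts with muscle use the same fat libraries on which the genes were picked, however. Their sizes are therefore not independent of that choice.

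The sum over genes was 3726376 to 7184022 counts per library, and 63.3% to 71.1% of all counts were on 5 lines that name no gene. On a log2 scale, the 34 libraries correlated with the others of their tissue at a mean r of 0.868 or more, and the lowest value belonged to I replicate 5. In muscle, replicate 8 was lowest at 0.918, with the next library at 0.939. Once the tissue means were removed, each library was correlated with the other tissues of every animal, and the mean was taken per animal. Of the 34 libraries, 26 had the highest mean with their own animal. Muscle replicate 4 and S replicate 5 were the farthest from this, with their own animal in rank 5. Levels below are CPM, the count of a gene relative to the total of its library, scaled with TMM factors over all libraries. The factors were 0.5235 to 0.7466 in muscle and 1.014 to 1.289 in the fat depots. They thus set muscle nearer to fat than plain shares of counts do. In replicate 1, for example, FASN took 0.464% of the counts on genes in O and 0.00751% in muscle, beside 3983 and 123 CPM. CPM does not correct for the length of a transcript, so the level of FASN is not compared with that of DGAT2.

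FASN was highest in S, followed by O, I and muscle. In S, FASN ranged from 1062 CPM in replicate 3 to 8344 CPM in replicate 8, with a median of 4175 and a mean of 4706 ± 2399.7 CPM (SD, n = 9). In O, the range was 1155 to 5090.4 CPM, the median 2388 and the mean 2782 ± 1211 CPM (SD, n = 9). The 2 depots overlapped over most of their range, and the spread between animals within S was wider than the distance between the depot means.

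In I, FASN ranged from 217 CPM in replicate 4 to 1469.6 CPM in replicate 1, with a median of 599 and a mean of 668 ± 396 CPM (SD, n = 8). In muscle, the range was 49.2 CPM in replicate 4 to 123 CPM in replicate 1, the median 64.7 and the mean 73.3 ± 25.3 CPM (SD, n = 8). The I libraries overlapped with O and S only through replicate 1, which stood above O replicate 3 (1155 CPM) and S replicate 3 (1062 CPM). No muscle library reached the lowest I library. The same animals, replicates 4 and 1, were lowest and highest in I and in muscle. In S replicate 8, FASN took 1.01% of all counts on genes.

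DGAT2 had the same order of tissues, with less distance between S and O. In S, DGAT2 ranged from 1559 CPM in replicate 3 to 4471 CPM in replicate 6, with a median of 3103 and a mean of 3115 ± 758 CPM (SD, n = 9). In O, the range was 1449 CPM in replicate 3 to 4419 CPM in replicate 6, the median 2397 and the mean 2571 ± 1065 CPM (SD, n = 9). The ranges of S and O almost coincided, and the same 2 animals stood at their ends.

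In I, DGAT2 ranged from 182 CPM in replicate 4 to 1373 CPM in replicate 3, with a median of 629 and a mean of 652 ± 373 CPM (SD, n = 8). In muscle, the range was 20.8 CPM in replicate 8 to 214 CPM in replicate 2, the median 48.7 and the mean 66.4 ± 62.7 CPM (SD, n = 8). Every I library was below every O and S library. Muscle and I overlapped only because muscle replicate 2 was higher than I replicate 4. The next highest muscle library, replicate 5, had 79.7 CPM. The lowest DGAT2 value rested on 58 counts, which is 0.00156% of the counts on genes of that library (exact 95% interval 0.00118% to 0.00201%, counting error only).

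**Figure D1:**
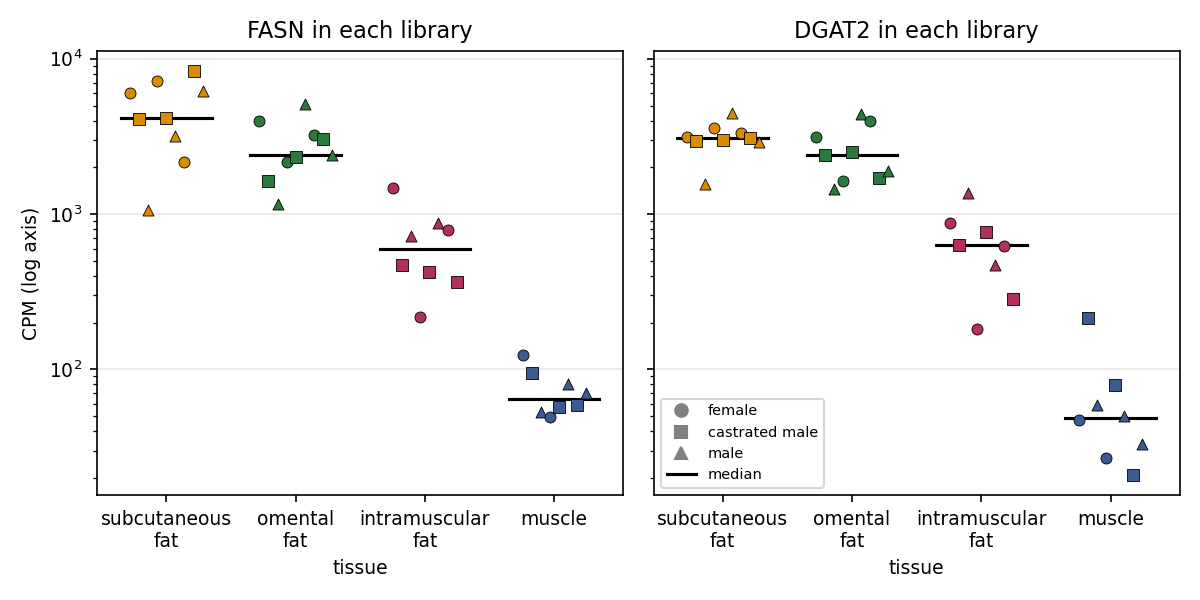
FASN and DGAT2 in each library, in CPM on a log axis, by tissue on the horizontal axis. Points are single libraries, shapes mark the labelled sex and bars mark the median, and for FASN the medians fall from 4175 CPM in S to 64.7 CPM in muscle.

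In I against O, FASN was lower by a log2 fold change of -2.03 (SE 0.34), a 4.09-fold difference, and lower in I in 8 of 8 animals. DGAT2 was lower by -1.96 (SE 0.34), a 3.88-fold difference, and also lower in 8 of 8 animals. Of all 13156 genes tested in this comparison, 15.5% were called lower in I at an FDR under 0.01 and 32.8% were called in either direction. The differences within single animals were uneven. FASN was 1.59-fold higher in O in replicate 3 and 9.96-fold higher in replicate 4. DGAT2 was 1.05-fold higher in O in replicate 3 and 9.37-fold higher in replicate 6. Replicate 3 thus had DGAT2 at nearly the same level in O (1449 CPM) and I (1373 CPM).

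In I against S, FASN was lower by -2.78 (SE 0.41) and DGAT2 by -2.22 (SE 0.31), which are 6.86-fold and 4.67-fold differences. Both genes were lower in I in 8 of 8 animals, and 15.2% of 13077 genes tested were called lower in I (32.7% in either direction). The I libraries are the same as in the comparison with O, so the values of both comparisons are not independent. Within animals, FASN was 1.46-fold higher in S in replicate 3 and 33.0-fold higher in replicate 4, where S held 7175 CPM and I held 217 CPM. DGAT2 was between 1.13-fold and 19.5-fold higher in S, again with replicates 3 and 4 at the ends. Without replicate 5, FASN was lower in I by -1.99 against O and -2.73 against S, and DGAT2 by -2.0037 and -2.27.

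Markers of other cells also differed between I and the other depots. The study had picked the 3 markers named here for qRT-PCR from its comparisons of I on these same libraries. Their values are therefore a description only. TPM2, which encodes a tropomyosin of muscle fibres, stood at 839 to 2023 CPM in I, 102 to 247 CPM in O, 70.7 to 262 CPM in S and 21907 to 51134 CPM in muscle. Its mean in I was 4.41% of its mean in muscle, against 0.485% in O and 0.457% in S. Of the 2 macrophage markers with an identifier, CD163 stood at 57.8 to 190.1 CPM in I, 295 to 959.8 CPM in O and 219 to 1106 CPM in S. ITGAM stood at 6.25 to 20.7 CPM in I, 43.3 to 221 CPM in O and 21.8 to 70.8 CPM in S. Every I library was above every O and S library in TPM2 and below every O and S library in CD163 and ITGAM. For each gene this was the direction in which the study had picked it. TPM2, CD163 and ITGAM are 3 of 35 marker genes listed. No marker of adipocytes could be matched to an identifier, so the label of the fat depots was not checked against adipocyte genes. The study itself lists the adipocyte genes ADIPOQ, PLIN1, AQP7 and FABP4 as down-regulated in I on these libraries. Those calls were not repeated here. The part of cell content in the lower FASN and DGAT2 of I was not tested. In bulk tissue, fewer cells of a type and less RNA per cell cannot be told apart.

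In S against O, FASN was higher in S by a log2 fold change of 0.76 (SE 0.33), which is 1.69-fold. It was higher in S in 6 of 9 animals and lower in replicates 3, 6 and 7. The within-animal differences ran from 3.32-fold higher in S in replicate 4 to 1.61-fold higher in O in replicate 6. Females and males fell on both sides of equal levels, while the 3 castrated males had FASN 1.79-fold to 2.73-fold higher in S.

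DGAT2 was not called between S and O. Its log2 fold change was 0.28 (SE 0.22, 95% interval -0.17 to 0.73, edgeR quasi-likelihood adjusted p = 0.534), and 3.32% of 12966 genes tested were called in this comparison in either direction. DGAT2 was higher in S in 7 of 9 animals. In replicates 1, 3 and 6 the depots were nearly equal, with 3153, 1559 and 4471 CPM in S beside 3155, 1449 and 4419 CPM in O. The largest difference was in replicate 4, with 3563 CPM in S and 1627 CPM in O. Without replicate 5 it was 0.28 (edgeR adjusted p = 0.634). With the animal as a block the log2 fold change was 0.34 (SE 0.14, 95% interval 0.02 to 0.65, edgeR unadjusted p = 0.0377, adjusted p = 0.129), an interval above 0 that did not pass over all genes. Whether FASN and DGAT2 differ in their S to O contrast was not tested, since FASN was chosen on it.

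**Figure D2:**
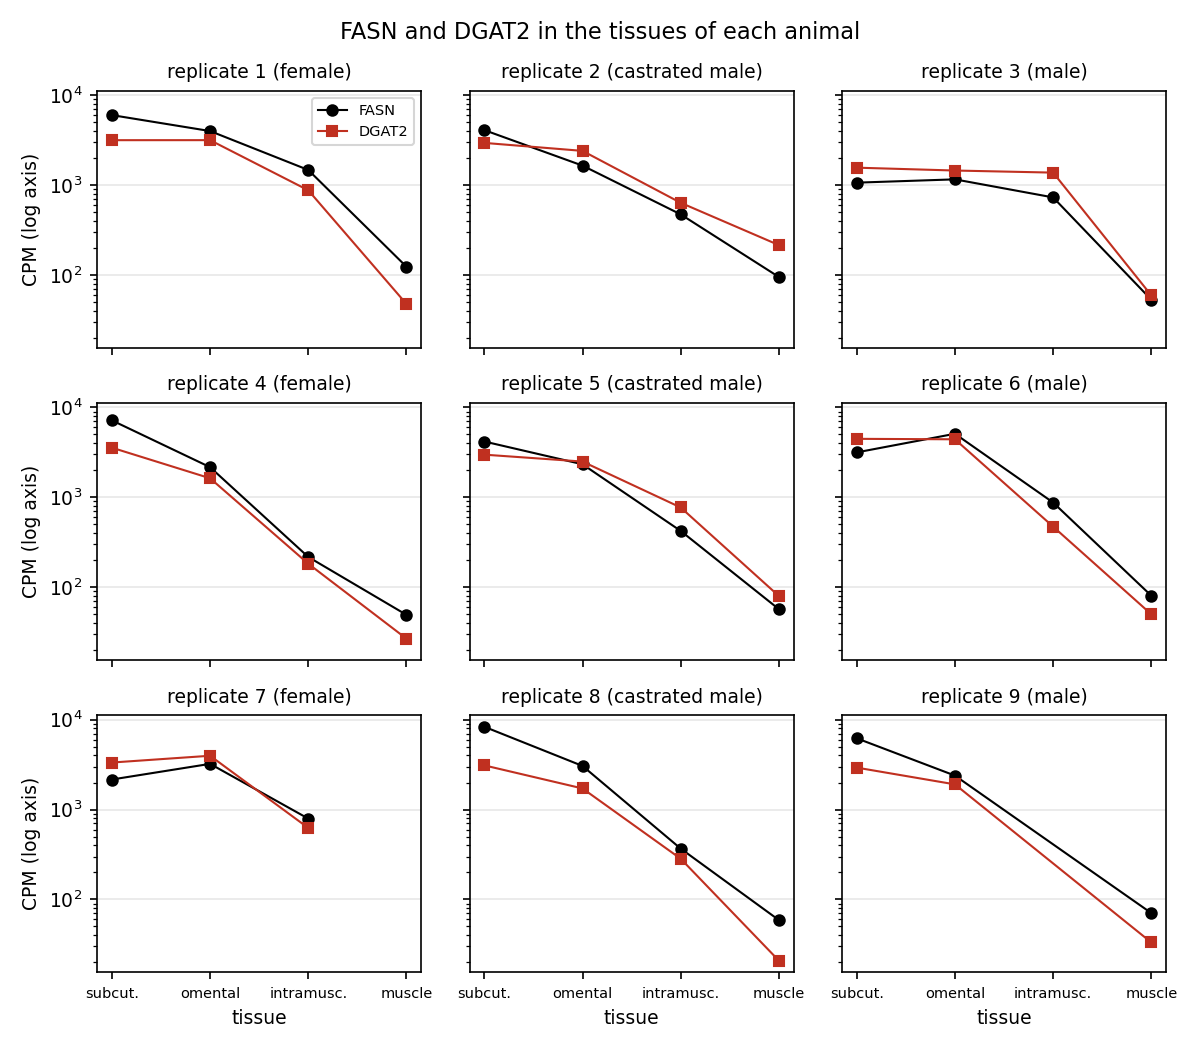
FASN (black circles) and DGAT2 (red squares) in the tissues of each of the 9 animals, in CPM on a log axis. In each animal with a muscle library both genes were lowest in muscle, and in replicate 3 DGAT2 was nearly level over the 3 fat depots (1559, 1449 and 1373 CPM).

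Muscle held both transcripts at a low but measurable level. FASN counts in muscle were 140 to 334 per library and DGAT2 counts 58 to 756. In muscle against O, FASN was lower by a log2 fold change of -5.29 (SE 0.32, edgeR adjusted p = 7.71e-12), which is a 39.2-fold difference (95% interval 24.6 to 62.5). DGAT2 was lower by -5.31 (SE 0.47, adjusted p = 2.36e-09), a 39.7-fold difference (20.2 to 77.9). Both genes were lower in muscle in 8 of 8 animals. Among all 12878 genes tested, 33.5% were called lower in muscle and 63.4% in either direction, so a call as such was common.

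Against S the distance was larger for FASN. FASN was lower in muscle by -6.01 (SE 0.40, edgeR adjusted p = 3.54e-11), a 64.4-fold difference (95% interval 36.1 to 115). DGAT2 was lower by -5.56 (SE 0.45, adjusted p = 6.64e-10), a 47.3-fold difference (24.8 to 90.1). The direction held in 8 of 8 animals for both genes. DESeq2 gave -3.73 for DGAT2 (adjusted p = 2.07e-06), and -5.56 when outlying counts were not replaced. In this comparison 32.2% of 12707 genes were called lower in muscle and 62.7% in either direction.

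Against I, the fat depot within the muscle, the distance was smallest. Both genes were picked for low levels in I, and FASN also for its level in S. The order of the distances to the depots thus repeats that choice and was not tested. FASN was lower in muscle by -3.17 (SE 0.34, edgeR adjusted p = 1.19e-07), an 8.98-fold difference (95% interval 5.47 to 14.8). DGAT2 was lower by -3.28 (SE 0.49, adjusted p = 6.48e-06), a 9.68-fold difference (4.80 to 19.5). Both genes were lower in muscle in 7 of 7 animals, by 4.38-fold to 13.7-fold for FASN and by 2.95-fold to 23.1-fold for DGAT2. In this comparison 29.8% of 12447 genes were called lower in muscle and 59.8% in either direction. The share of fat cells in the muscle libraries was not measured. The muscle libraries serve in all 3 comparisons. Without muscle replicate 4, the values against O, I and S were -5.22, -3.25 and -5.97 for FASN and -5.19, -3.29 and -5.46 for DGAT2. Without replicate 8, which held the lowest DGAT2 level in muscle, they were -5.23, -3.38 and -5.85 for FASN and -5.23, -3.41 and -5.44 for DGAT2. CD163 stood at 4.04 to 33.4 CPM and ITGAM at 0.416 to 2.92 CPM in muscle, below every fat library, and their part in these differences was not tested.

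**Figure D3:**
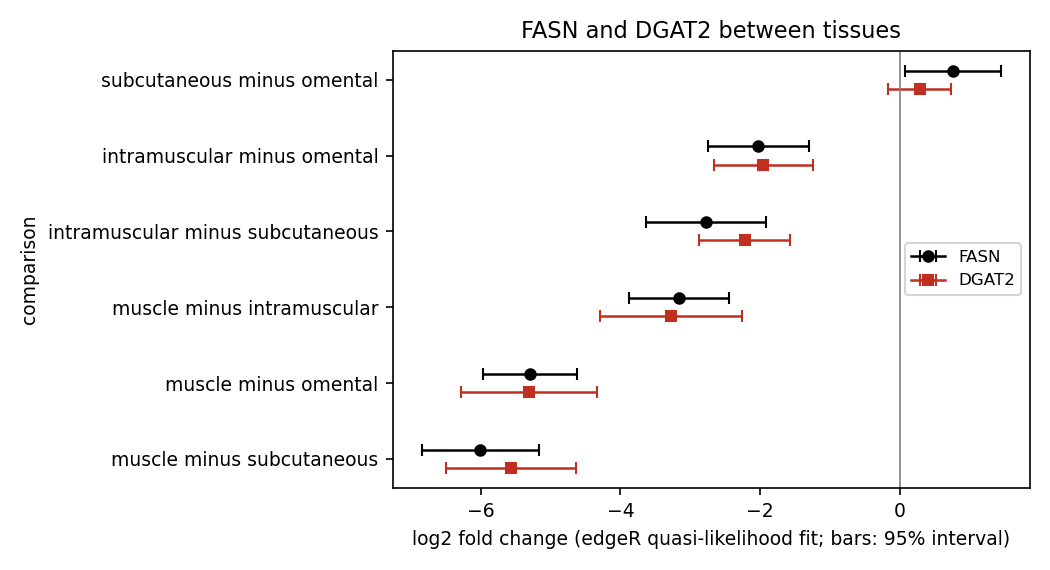
Log2 fold change of FASN (black) and DGAT2 (red) between tissues, from the edgeR quasi-likelihood fits, with 95% intervals as bars. Both genes have the same sign in each comparison, from 0.76 (FASN) and 0.28 (DGAT2) for S against O to -6.01 and -5.56 for muscle against S. The interval of DGAT2 in S against O includes 0. The other contrasts between fat depots are those the genes were picked on, so their intervals are a description and not a test.

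The spread between animals was large for these genes in most tissues. In log2 CPM, FASN had an SD of 0.945 in S, 0.862 in I, 0.650 in O and 0.456 in muscle. For comparison, the median SD over all genes with a mean above 1 was 0.344, 0.422, 0.332 and 0.456, respectively. FASN in S thus varied more than 97.0% of 12714 genes, and FASN in muscle was at the median of 12115 genes. DGAT2 had an SD of 0.406 in S, 0.925 in I, 0.575 in O and 1.04 in muscle. It stood at the 61.9th percentile in S and at the 96.4th in muscle. The SD of FASN was 2.33 times that of DGAT2 in S and 0.438 times in muscle. These differences in spread were seen in the values and were not tested. From the lowest to the highest animal, FASN differed 7.86-fold in S and 2.50-fold in muscle, and DGAT2 2.87-fold in S and 10.3-fold in muscle. Single libraries set much of this spread. Without replicate 3, FASN in S differed 3.86-fold (SD 0.654) and DGAT2 1.53-fold (SD 0.205). Without replicate 2, DGAT2 in muscle differed 3.82-fold (SD 0.670), and the SD of FASN there was 0.678 times that of DGAT2.

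The relation of FASN with DGAT2 across animals was positive in each tissue. Across the 9 animals, Pearson's r was 0.749 in O (exact permutation p = 0.0200, adjusted p = 0.0800 over the 4 tissues, n = 9) and Spearman's rho 0.783 (exact p = 0.0172, adjusted p = 0.0688). Without replicates 3 and 6, which are the lowest and highest for both genes, r was 0.447 (exact p = 0.312). Within labelled sexes, r was 0.729 (exact p = 0.134). Leaving out single animals kept r between 0.625 and 0.848. The relation in O did not pass after adjustment over the 4 tissues.

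In I, r was 0.695 (exact p = 0.0562, adjusted p = 0.112, n = 8) and rho 0.524 (exact p = 0.197, adjusted p = 0.394). Without replicates 1 and 4, r was 0.369 (exact p = 0.482), and within labelled sexes 0.728 (exact p = 0.111). The low end was set by replicate 4, with 217 CPM of FASN and 182 CPM of DGAT2.

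In S, r was 0.571 (exact p = 0.120, adjusted p = 0.160, n = 9) but rho only 0.133 (exact p = 0.744 before and after adjustment). Without replicates 3 and 8, r was -0.291 (exact p = 0.533), and within labelled sexes 0.554 (exact p = 0.394). The relation in S rested on replicate 3, the lowest animal for both genes. Among the other 8 S libraries, DGAT2 stayed between 2930 and 4471 CPM while FASN went from 2161 to 8344 CPM.

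In muscle, r was 0.394 (exact p = 0.343 before and after adjustment, n = 8) and rho 0.238 (exact p = 0.582, adjusted p = 0.744). Without replicates 1 and 2, r was 0.0849 (exact p = 0.865), and within labelled sexes 0.502 (exact p = 0.278). All 4 coefficients were positive, and none of the 4 passed the adjusted threshold of 0.05.

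**Figure D4:**
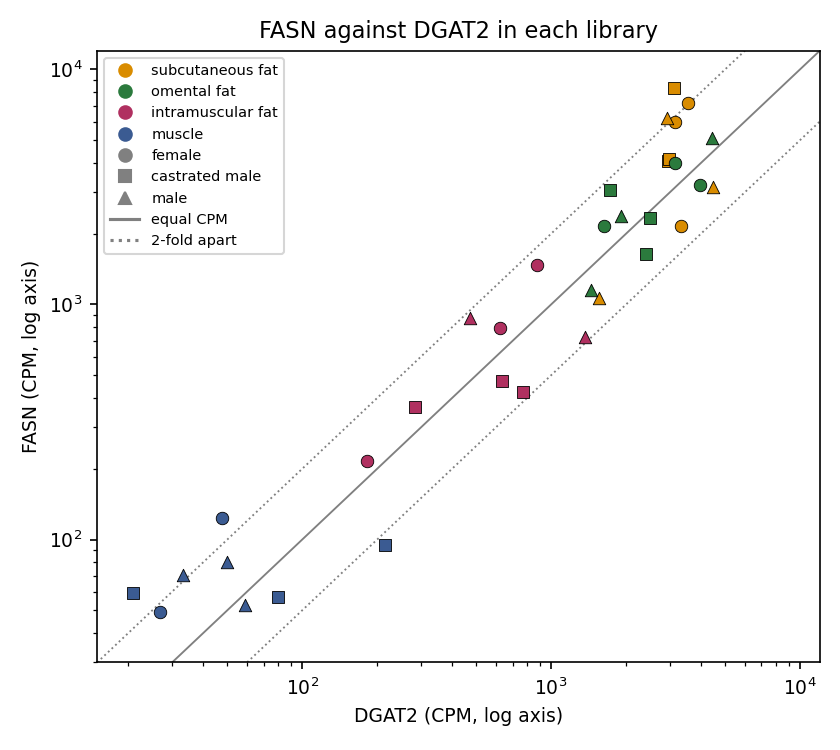
FASN against DGAT2 in each of the 34 libraries, in CPM on log axes, with colours for tissues and shapes for labelled sex. The lines mark equal CPM and a 2-fold distance from it, and muscle lies at the lower end, I in the middle, and O and S mix at the upper end. Because these levels stand apart, no r is given over all libraries.

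The ratio of FASN to DGAT2 counts within a library does not depend on how libraries are scaled. It is not corrected for transcript length, so only its change between libraries can be read. The ratio ranged from 0.686 to 1.78 in O (median 1.15), from 0.648 to 2.69 in S (median 1.40), from 0.530 to 1.85 in I (median 1.23) and from 0.442 to 2.83 in muscle (median 1.72). All 4 tissues overlapped. The S libraries lay in 2 ranges, with replicates 3, 6 and 7 at 0.681, 0.707 and 0.648 and the other 6 at 1.39 or more. Replicates 3, 6 and 7 are also the animals in which FASN was lower in S than in O. Both observations share the FASN value of the S library, so they are not independent.

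Within animals, the log2 ratio was higher in muscle than in O by 0.32 ± 0.57 (SD, n = 8, exact sign-flip permutation p = 0.141, adjusted p = 0.258 over 3 comparisons). It was higher in muscle than in I by 0.37 ± 0.64 (SD, n = 7, exact p = 0.172, adjusted p = 0.258). Against S the difference was -0.08 ± 0.88 (SD, n = 8, exact p = 0.812, adjusted p = 0.812), and it turned to 0.14 without replicate 2 and to 0.05 without replicate 5. Each gene alone was lower in muscle than in each depot, by a median over animals of 7.38-fold or more. The smallest difference in a single animal was 2.95-fold, for DGAT2 against I in replicate 2. No difference of the ratio between muscle and a depot passed the test. The smallest p these tests allow is 0.00781 with 8 animals and 0.0156 with 7. Muscle replicate 2 had the lowest ratio of all (0.442) and replicate 8 the highest (2.83).

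No relation of a gene between 2 tissues passed across animals. This holds for all 12 relations over all animals, after adjustment over the 12. The smallest exact p was that of DGAT2 between O and S (r = 0.634, exact permutation p = 0.0468, adjusted p = 0.369, n = 9, and rho = 0.550, exact p = 0.133, adjusted p = 0.394), and without replicates 6 and 7 r was 0.443 (exact p = 0.301). For DGAT2 between S and I the coefficient was negative (r = -0.624, exact p = 0.102, adjusted p = 0.408, n = 8, and rho = -0.667, exact p = 0.0831, adjusted p = 0.394). Without replicates 3 and 6 it was -0.628 (exact p = 0.171), and within labelled sexes -0.580 (exact p = 0.0278, adjusted p = 0.334). FASN between I and muscle had the highest r of that gene (r = 0.730, exact p = 0.0615, adjusted p = 0.369, n = 7, and rho = 0.679, exact p = 0.110, adjusted p = 0.394), which became 0.159 without replicates 1 and 4 (exact p = 0.775). Between O and I, r was higher without replicates 3 and 6, going from 0.158 (exact p = 0.701, adjusted p = 0.707, n = 8, and rho = -0.0476, exact p = 0.935) to 0.807 (exact p = 0.0639) for DGAT2 and from 0.394 (exact p = 0.333, adjusted p = 0.5, n = 8, and rho = 0.571, exact p = 0.151) to 0.669 (exact p = 0.151) for FASN. Within labelled sexes FASN between I and muscle had r = 0.867 (exact p = 0.167), and DGAT2 between O and S 0.625 (exact p = 0.370).

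The genes were also set against TPM2, CD163 and ITGAM across the animals of each tissue. None of 24 relations passed after adjustment. The smallest exact p was that of FASN with CD163 in O (r = -0.751, exact permutation p = 0.0210, adjusted p = 0.361, n = 9, and rho = -0.700, exact p = 0.0433, adjusted p = 0.456). Without replicates 2 and 6 it was -0.533 (exact p = 0.218), and within labelled sexes -0.883 (exact p = 0.0185, adjusted p = 0.444). DGAT2 with CD163 in S had r = -0.709 (exact p = 0.0301, adjusted p = 0.361, n = 9, and rho = -0.650, exact p = 0.0666, adjusted p = 0.456), and -0.812 without replicates 1 and 3 (exact p = 0.0210). Within labelled sexes this r was -0.738 (exact p = 0.185). In I the coefficients of DGAT2 with both macrophage markers were positive and that with TPM2 negative (r = -0.488, exact p = 0.219, adjusted p = 0.584, n = 8, and rho = -0.429, exact p = 0.299, adjusted p = 0.699). TPM2 gave -0.430 without replicates 3 and 5 (exact p = 0.389) and -0.473 within labelled sexes (exact p = 0.389). With CD163 it was r = 0.634 (exact p = 0.0887, adjusted p = 0.518, n = 8, and rho = 0.714, exact p = 0.0576, adjusted p = 0.456). This r was 0.338 without replicates 4 and 6 (exact p = 0.525) and 0.835 within labelled sexes (exact p = 0.0694). DGAT2 with ITGAM in I had r = 0.445 (exact p = 0.268, adjusted p = 0.585, n = 8, and rho = 0.524, exact p = 0.197, adjusted p = 0.675), 0.504 without replicates 5 and 7 (exact p = 0.307) and 0.705 within labelled sexes (exact p = 0.0972).

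No difference of either gene between the labelled sexes passed the test. FASN in S averaged 5109.6 ± 2621 CPM in females, 5533 ± 2435 CPM in castrated males and 3477 ± 2588 CPM in males (SD, n = 3 each). In O the means were 3124 ± 915, 2344 ± 708 and 2878 ± 2013 CPM in the same order, so the groups overlapped in both depots. In I, FASN averaged 827 ± 627 CPM in 3 females, 420.4 ± 51.6 CPM in 3 castrated males and 801 ± 104 CPM in 2 males.

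DGAT2 in S averaged 3351 ± 205 CPM in females, 3008 ± 84.5 CPM in castrated males and 2987 ± 1457 CPM in males (SD, n = 3 each). The 6 females and castrated males all lay between 2941 and 3563 CPM, while the males held both the lowest and the highest value. In muscle, DGAT2 averaged 37.1 ± 14.7 CPM in 2 females, 105 ± 99.2 CPM in 3 castrated males and 47.4 ± 13.1 CPM in 3 males.

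Over 24 tests of a gene between 2 labelled sexes within a tissue, edgeR called 0, and 0 had an unadjusted p under 0.05. Of all genes, 0.0372% were called in O, 0.0292% in I, 0.0377% in S and 0% in muscle between females and either group of males. Between males and castrated males, 0.0166% were called in muscle and 0% in each fat depot. The largest difference was that of DGAT2 in muscle, castrated males against females (log2 fold change 1.46, SE 0.72, edgeR adjusted p = 0.662), with 2 females. Without replicate 2 it was 0.37 (SE 0.54, edgeR adjusted p = 0.752), and without replicate 8 it was 1.95 (SE 0.49, edgeR unadjusted p = 0.00241, adjusted p = 0.462). For FASN it was castrated males against females in I (-0.99, SE 0.55, edgeR adjusted p = 0.681). It was -0.26 without replicate 1 and -1.42 without replicate 4 (edgeR unadjusted p = 0.00274, adjusted p = 0.470). For FASN in S, the log2 fold change of males against castrated males was -0.71 with all animals (edgeR unadjusted p = 0.274, adjusted p = 0.621) and -1.45 without replicate 9 (edgeR unadjusted p = 0.042, adjusted p = 0.317). Against females the males were at -0.56, and at -1.30 without replicate 9 (edgeR unadjusted p = 0.0612, adjusted p = 0.810). The likelihood ratio test of edgeR, DESeq2 and the fit without a filter also called 0 of 24, with an unadjusted p under 0.05 in 1, 2 and 2 tests, all of DGAT2 in muscle. For castrated males against females these unadjusted p were 0.0447, 0.0289 and 0.00594.

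A difference of a tissue contrast between labelled sexes was tested with the animal as a block. Of 36 such tests 0 were called by edgeR and 1 had an unadjusted p under 0.05, and of all genes 0.0315% were called for muscle against O and 0.0320% for muscle against S, between females and either group of males, and 0% elsewhere. That test was FASN in I against S between males and castrated males, by 2.46 on the log2 scale (SE 0.99, edgeR unadjusted p = 0.0355, adjusted p = 0.311). The 3 castrated males had FASN 8.65-fold, 9.88-fold and 22.7-fold higher in S than in I, and the 2 males with both libraries 1.46-fold and 3.61-fold.

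Genes with a pattern like that of FASN and DGAT2 over the 26 fat libraries were ranked by Pearson's r of log2 CPM after the mean of each depot was removed. The points share animals and libraries, so r is given as a description. Over 12820 genes, FASN was matched best by ENSBTAG00000017567 (r = 0.909), and the fifth gene had r = 0.821. DGAT2 was matched best by ENSBTAG00000008541 (r = 0.934), and the fifth gene had r = 0.872. None of these 10 identifiers could be paired with a name. DGAT2 ranked 126 for FASN and FASN ranked 324 for DGAT2, with r = 0.629 between them, whereas the 95th percentile of all genes was 0.458 for FASN and 0.544 for DGAT2. FASN and DGAT2 were thus above most genes in likeness to each other, but each had many closer genes. Of the 19 genes with a name that were ranked, chosen here after their values were seen, EN1, a homeobox factor, was the nearest to DGAT2 (r = 0.725, rank 111), and ACTB, the beta-actin gene, the farthest from FASN (r = -0.545, rank 12678).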

How the data were processed

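Total RNA of 34 tissue samples was sequenced as paired-end reads from poly(A) RNA. Reads were aligned by the authors to bosTau6 with TopHat2 (version 2.0.2), and HTSeq (version 0.5.3p3) gave the number of reads per Ensembl gene, as the submitters' processing notes also state. The deposited values are raw counts, 1 library per table. The strand setting of the counting is not given in the sources used here, so overlapping genes on opposite strands may share reads. The 5 lines that name no gene (63.3% to 71.1% of counts) were left out of library sizes and tests. No 2 libraries of a tissue agreed within sampling noise.

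Tissue and sex were taken from the labels. Pairs of tissues were tested in edgeR 4.0.16 (R 4.3.3) by quasi-likelihood on all genes kept by filterByExpr (count minimum 10), with TMM factors, no term for the animal and Benjamini-Hochberg adjustment, at an FDR under 0.01. The SE of a log2 fold change is its size over the root of its F statistic. CPM used TMM factors over all libraries, and log2 CPM a prior count of 2. Correlations and within-animal differences of the ratio were tested with exact two-sided permutation tests (Python with scipy 1.17.1). The scripts were tested on simulated data.

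Libraries of a replicate number come from the same animal. Their deviations from the tissue means correlated at a median r of 0.386 between O and S, 0.209 between I and S, 0.109 between O and I and 0.034 to 0.248 with muscle.

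The genes, lists and tests were chosen with earlier results of these data known. Gene names were taken from the study's list of primers, which pairs 31 identifiers with a symbol. Of 62 genes listed for lipid synthesis and storage, only FASN and DGAT2 were paired, so the other enzymes of the pathway, the adipocyte markers and scaling by them were not analysed here. Named genes are FASN and DGAT2, the marker genes with an identifier and the nearest genes in likeness. Alternatives were the likelihood ratio test, DESeq2 1.42.0, RLE factors, no filter, the animal as a block, deviations from the mean of the labelled sex, muscle without replicate 4 and each animal left out in turn. The interaction with sex, DESeq2 without replacement of outlying counts, the interval with the animal as a block the check for far values on log2 CPM and the spread without each animal were added after seeing the data.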

Additional observations from a re-analysis of the deposited data

Results flagged for a closer look

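DGAT2 in muscle replicate 2, a castrated male, stood at 214 CPM, far from the other muscle libraries of 20.8 to 79.7 CPM. Its gap to the next library was 0.696 of the range of the group, above the critical value of 0.526 for 8 libraries (Dixon's test at 95%). FASN in the same library was 94.7 CPM, within the range of the other muscle libraries (49.2 to 123 CPM). Without replicate 2 the log2 fold change of DGAT2 in muscle was -5.89 against O, -3.85 against I and -6.14 against S. The ratio was taken on CPM. On log2 CPM it was 0.426 for this library, below the critical value, while DGAT2 in S replicate 3, the lowest S library, reached 0.599 against a critical value of 0.493 for 9 libraries. Of 12 groups of values checked in this way, 1 held a far value on the CPM scale, and chance gives about 1 in 20.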

How the results depend on the processing

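Of 215 tested values under other settings, 210 kept their direction and their side of the threshold, and 76 values without a test kept their direction and moved by less than the SD between animals. Leaving out each animal in turn, the lower FASN in muscle ranged from -5.43 to -5.15 against O, -3.38 to -3.05 against I and -6.12 to -5.85 against S, and the lower DGAT2 from -5.89 to -5.12, -3.85 to -3.01 and -6.14 to -5.42, with edgeR adjusted p up to 6.22e-05. DGAT2 in S against O ranged from 0.19 to 0.36 (adjusted p 0.402 to 0.748). The r of FASN with DGAT2 ranged from 0.625 to 0.848 in O, from -0.327 to 0.763 in S, from 0.436 to 0.771 in I and from 0.154 to 0.608 in muscle. In O it passed without replicate 2 (r = 0.806, exact permutation adjusted p = 0.0414) and without replicate 8 (r = 0.848, adjusted p = 0.0349), and in S it turned negative without replicate 3 (-0.327). The log2 ratio of FASN to DGAT2 in muscle ranged from 0.22 to 0.46 against O, from 0.24 to 0.55 against I and from -0.26 to 0.14 against S, where it turned without replicate 2 (0.14) and without replicate 5 (0.05). The cause of these turns was not tested.

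With the replicate block, which keeps animals with both tissues, the log2 fold change of DGAT2 in S against O was 0.34 (edgeR adjusted p = 0.129), and in muscle FASN was -5.17, -2.96 and -5.98 and DGAT2 -5.50, -3.34 and -5.91 against O, I and S, so no call of these genes changed. Over all genes in S against O, 430 were called without the block, 1067 with it, 743 by the likelihood ratio test and 814 by DESeq2. For DGAT2 in muscle against S, DESeq2 gave -3.73 with its replacement of outlying counts by a trimmed mean over the libraries and -5.56 without it, in which case it gave no adjusted p. Scaling by adipocyte markers was not run. Of both genes, DGAT2 in muscle had the fewest counts, 58 in the lowest library, and ITGAM in muscle rested on 1 to 10 counts.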
